A study of Mus musculus with 20 samples.

Results

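The 10 mouse genes described here are the 4 Tead transcription factors (Tead1, Tead2, Tead3 and Tead4), their coactivators Yap1 and Wwtr1, the kinases Lats1 and Lats2, and the Tead cofactors Vgll2 and Vgll3. Open chromatin around them was mapped by ATAC-seq, in which a transposase inserts sequencing adapters into accessible DNA, in the mouse myoblast line C2C12, whose cells can fuse into muscle fibres in culture. Peaks of the 20 libraries that shared 1 bp or more were joined, which gave 101352 regions over the genome. Of these, 122 lay within 20 kb of the span of a member gene on GRCm38 and are called elements here. An element counts as called where the list of a library has a peak overlapping it.

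The cells were wild type (WT) or Setd2 knockout (KO). There were 2 KO lines, here line 1 and line 2, and each KO group holds 1 library of each, so that differences between lines enter its spread. Cells were taken at D0 and, after control medium (CTL) or methionine restriction (MR), at D1 and D5, with 2 libraries in each of 10 groups. The study's title and design ask what methionine availability does to a histone mark while cells differentiate, and whether Setd2 matters. Setd2 encodes the methyltransferase that trimethylates lysine 36 of histone H3. Whether each KO line was 1 clone is not given in the sources used here, and peak lists do not check the knockout itself. Nothing in the labels says that the 2 WT replicates came from separate cultures, so p-values measure the spread between these libraries, which may be technical.

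In the Hippo pathway the kinases Lats1 and Lats2 phosphorylate the coactivators Yap1 and Wwtr1 (also called TAZ) and keep them out of the nucleus. Unphosphorylated Yap1 and Wwtr1 enter the nucleus, where they bind DNA through the Tead factors. Vgll proteins bind the same face of the Tead factors and lack DNA-binding domains of their own. In muscle, Tead factors bind the MCAT element of muscle gene promoters, Yap1 activity favours myoblast proliferation, and Vgll2 is a muscle-enriched cofactor.

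The element that Tead factors bind has the core CATTCC, which reads GGAATG on the other strand, and the upstream sequences of 4 member genes hold it. RefSeq promoter sequences (GRCm38.p6) were at hand for 8 of the 10 genes, all but Tead1 and Tead4. Over the 250 bases before the start site, searched on both strands, the core was found once each in Tead3, Yap1, Wwtr1 and Vgll3 and was not found in Tead2, Lats1, Lats2 and Vgll2. By comparison 11.5% of 17274 promoters held it in the same window. The E-box CAGCTG, which myogenic factors bind, and the AP-1 element TGANTCA were found in 0 of the 8, against 11.7% and 6.23% of all promoters. The 4 sequences are shown 5′ to 3′ on the strand of the gene because an element called in this study overlaps each of them, with the core on either strand in capitals. They lie at chr17:28350806-28351055 (Tead3, minus strand), chr9:8004597-8004846 (Yap1, minus strand), chr3:57575911-57576160 (Wwtr1, minus strand) and chr16:65814939-65815188 (Vgll3, plus strand).
Tead3: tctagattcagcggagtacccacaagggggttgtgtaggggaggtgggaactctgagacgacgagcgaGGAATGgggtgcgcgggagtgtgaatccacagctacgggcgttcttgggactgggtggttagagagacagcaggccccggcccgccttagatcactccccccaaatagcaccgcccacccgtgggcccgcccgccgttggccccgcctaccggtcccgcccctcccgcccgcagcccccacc
Yap1: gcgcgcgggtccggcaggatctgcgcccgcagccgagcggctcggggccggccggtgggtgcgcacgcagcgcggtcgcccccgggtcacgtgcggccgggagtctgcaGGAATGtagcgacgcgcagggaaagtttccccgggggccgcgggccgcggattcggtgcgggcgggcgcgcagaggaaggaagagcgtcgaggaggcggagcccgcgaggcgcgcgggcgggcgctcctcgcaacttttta
Wwtr1: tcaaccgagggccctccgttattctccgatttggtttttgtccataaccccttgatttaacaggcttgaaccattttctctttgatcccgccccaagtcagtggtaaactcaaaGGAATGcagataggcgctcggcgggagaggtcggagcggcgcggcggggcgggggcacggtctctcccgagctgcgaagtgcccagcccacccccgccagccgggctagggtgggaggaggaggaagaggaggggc
Vgll3: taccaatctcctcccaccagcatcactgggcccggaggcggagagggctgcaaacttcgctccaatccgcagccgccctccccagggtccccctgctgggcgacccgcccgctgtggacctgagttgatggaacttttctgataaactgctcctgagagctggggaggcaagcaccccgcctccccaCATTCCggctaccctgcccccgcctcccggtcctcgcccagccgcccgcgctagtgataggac
The core begins 182 bases before the start site in Tead3, 141 in Yap1, 136 in Wwtr1 and 63 in Vgll3. The elements over these windows were called in 12 libraries for Tead3, 5 for Yap1, 18 for Wwtr1 and 18 for Vgll3. A match is a run of letters and was not tested as a binding site.

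The lists held 20847 to 69881 peaks in 18 libraries. The D5 libraries of KO line 1 stood apart, with 644 peaks in CTL and 1881 in MR, and they called 1 and 2 of the 122 elements. At D5 the KO genotype is therefore seen in 1 library per medium, that of line 2. Of the markers of the labelled cell type, peaks were called at the gene ends of Des and Cdh15 in 18 libraries and of Myod1 and Itga7 in 17. Myf5 and Pax7 had none. Of 8 markers of blood, endothelial, epithelial, neural crest and fat cells, 7 were without a call at 1 kb or less from their ends and Sox10 was called in 1 library. These absences depend on the distance. Within 2 kb the fat marker Adipoq was called in 16 libraries, 8 of each genotype, Myf5 in 9, Sox10 in 2, and Cd3e and Cdh5 in 1 each, while Pax7 and the other 4 markers of other cell types still had none.

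The 122 elements were spread unevenly over the genes. Tead1, with a span of 227429 bp, had 33, Wwtr1 20, Tead4 19, Lats2 12, Tead3 9, Vgll2 8, Vgll3 7, Lats1 6, and Tead2 and Yap1 4 each. Per 10 kb of span and flanks this was 1.74 for Vgll2, 1.67 for Tead4 and 1.52 for Tead3, but 0.694 for Tead2 and 0.355 for Yap1. At the ends of member genes lay 18 elements, in their bodies 75 and in their flanks 29, of which 14 overlapped another gene. Within 1 kb of an end of another gene lay 10, among them elements at Fance and Rpl10a beside Tead3 and at Nup43 and Pcmt1 beside Lats1. The median element was 207 bp wide and called in 5.5 libraries, against 172 bp and 5 libraries over all regions. A single library called 23 elements (18.9%, all regions 20.4%), and 14 (11.5%, all regions 11%) were called in all 18 libraries other than the D5 libraries of KO line 1.

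**Figure D1:**
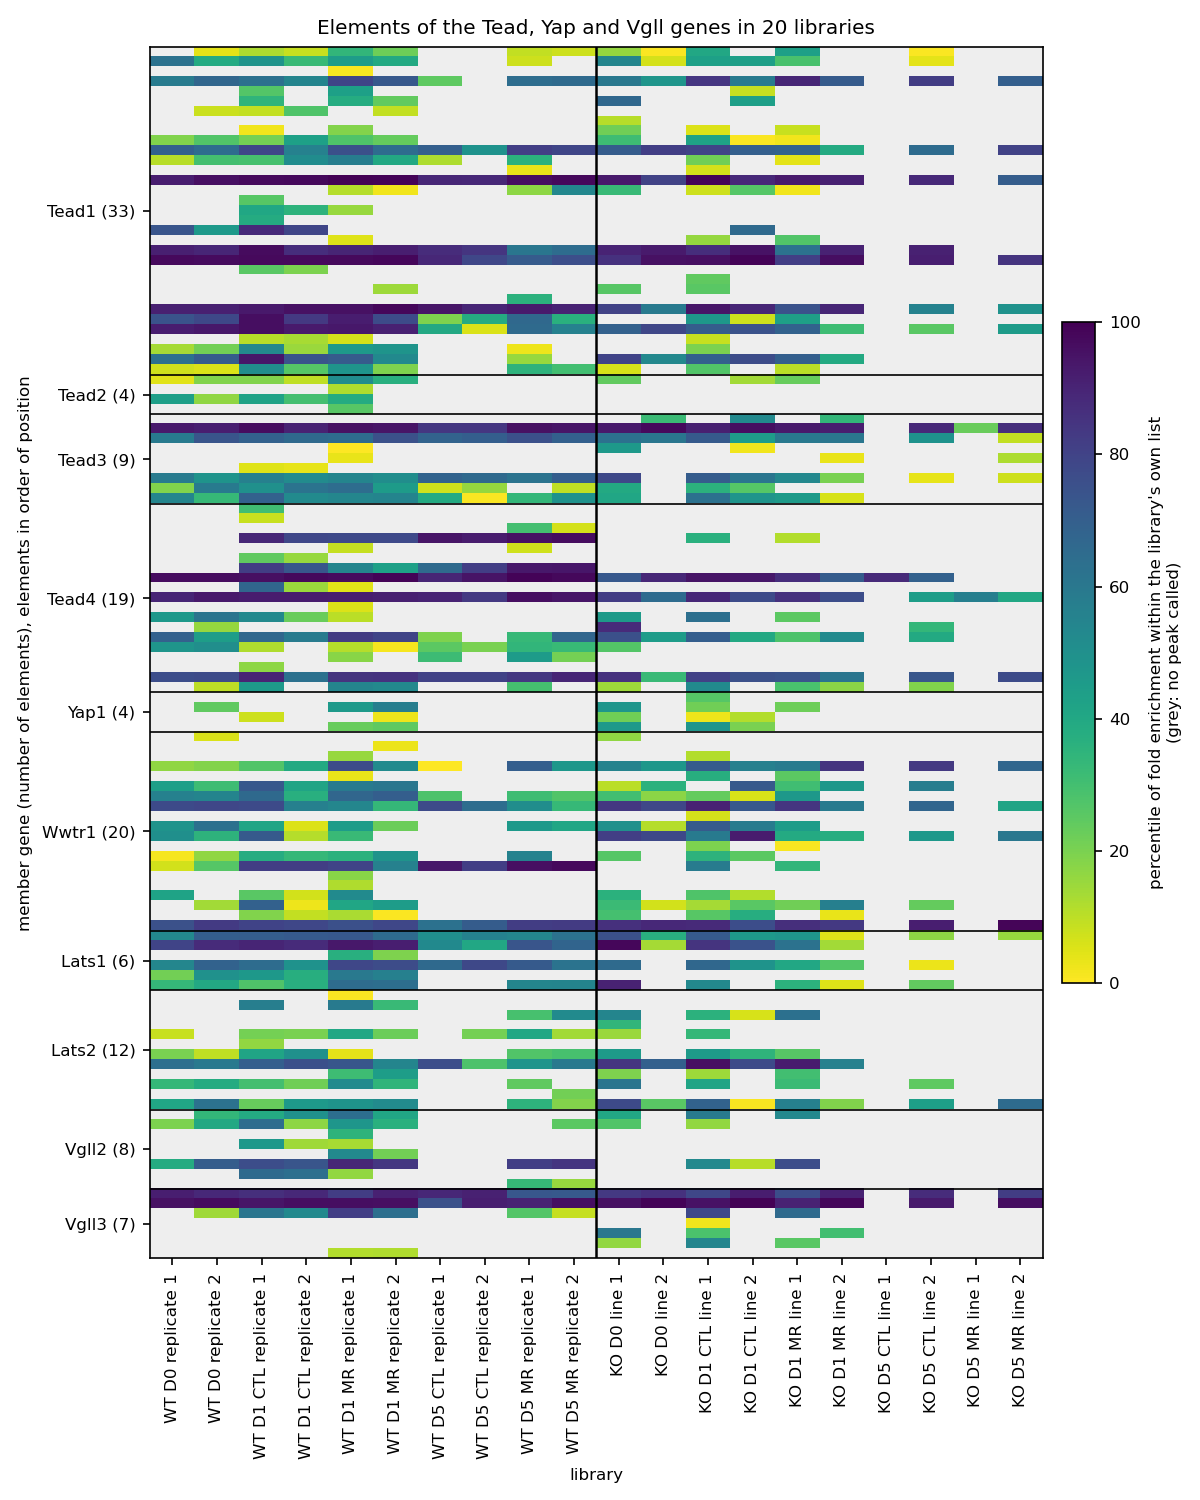
Each row is 1 of the 122 elements, grouped by gene and ordered by position, and each column 1 of 20 libraries, WT left of the vertical line and KO right of it. Colour is the percentile of the authors' fold enrichment among all peaks of that library's list and grey marks no call. The 14 elements called in all 18 libraries are the rows with a colour, dark or pale, in every column other than the D5 libraries of KO line 1. Those columns are nearly all grey, with 1 and 2 elements.

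More elements of these genes were open in WT libraries alone than in KO libraries alone. In WT only were 36 elements (29.5%, all regions 21.8%) and in KO only 10 (8.20%, all regions 20.1%). Tead4 had 10 of its 19 elements called in WT only and none in KO only. All 10 were called at D1 or D5 and not at D0. Absence at D0 held for 33 of the 36 WT-only elements, and for 17661 of the 22093 WT-only regions of the genome. Of the 10, chr6:128259277-128259673 was called in 8 libraries and the others in 1 to 4 each. Vgll2 had 5 of 8 in WT only, also all 5 outside D0, each called in 1 to 3 libraries. Tead2 had 3 of 4 in WT only, called in 1 to 5 libraries. Tead1 had 7 of 33 in WT only and 2 in KO only. Vgll3 differed from these, with 1 of 7 in WT only and 3 in KO only, and Yap1 had 0 and 1 of 4. WT has 10 libraries of at least 20847 peaks and KO 8 of at least 22062, so an element has more chances to be seen in WT, which also holds for all regions.

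Library by library, the share of the 122 elements that was called can be set against the share of all regions called in the same list. The ratio of the 2 shares was above 1 in all 10 WT libraries, from 1.01 to 1.30 with a median of 1.14. In the 8 KO libraries of usual length it was 0.765 to 1.02 with a median of 0.884, and above 1 in 1, line 1 at D1 in CTL. The groups overlap only between 1.01 and 1.02. This is a description over members chosen with earlier results in view and carries no test.

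**Figure D2:**
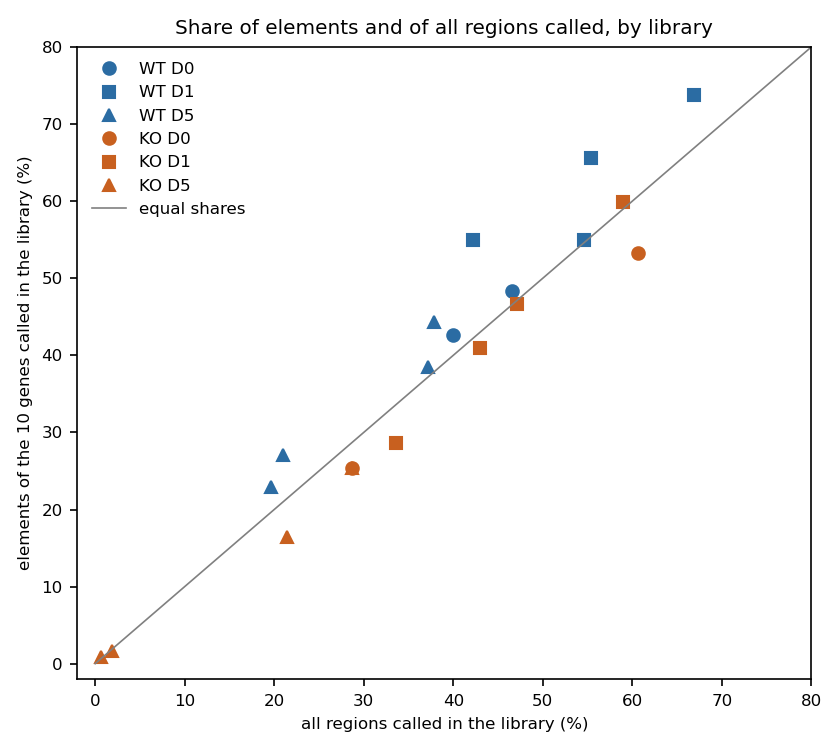
The horizontal axis gives the percentage of all 101352 regions called in a library and the vertical axis the percentage of the 122 elements, with colour for genotype, symbol for day and a grey line for equal shares. The WT points lie on or above the line, with ratios from 1.01 to 1.30. The 8 KO points of usual list length lie between ratios of 0.765 and 1.02, with those of line 2 at D0 and at D5 in CTL on top of each other, and the 2 points near the origin are the D5 libraries of KO line 1.

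**Figure D3:**
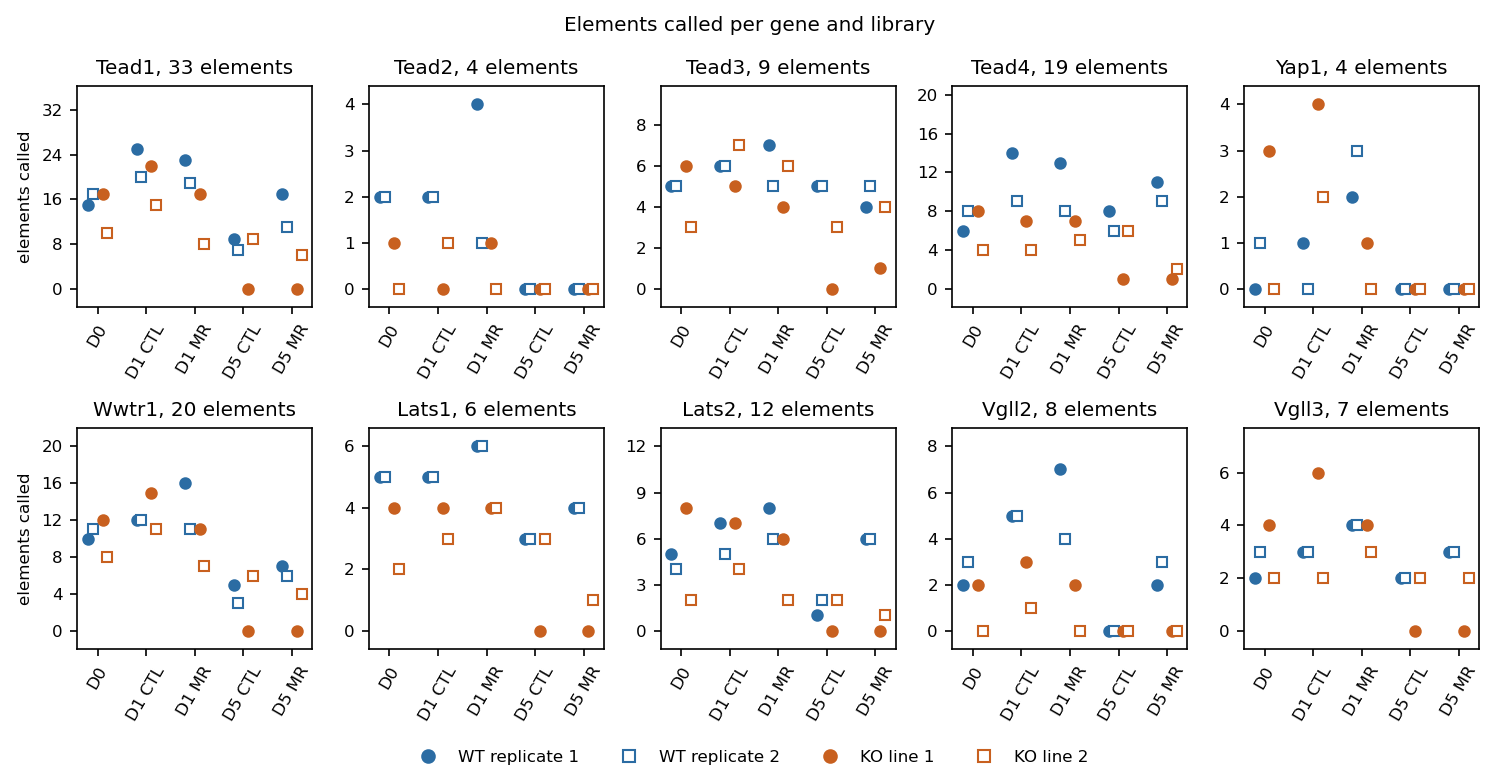
Each panel gives, for 1 gene, the number of its elements called in each library (vertical axis) by day and medium (horizontal axis), with filled circles for WT replicate 1 or KO line 1 and open squares for WT replicate 2 or KO line 2. At D1 the 4 WT libraries called 8 to 14 of the 19 Tead4 elements and the 4 KO libraries 4 to 7. At D5 no library called any element of Yap1 or Tead2.

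The first comparison asks whether elements were called in different numbers of WT and KO libraries. Fewer KO than WT libraries called an element in every case that passed the test: 2 elements of Tead4 and 1 each of Tead1, Wwtr1 and Lats1. The exact permutation test exchanged genotype within day and medium in all 7776 ways, two-sided, with Benjamini-Hochberg adjustment over the regions of the genome whose calls allowed a p of 0.05 or lower. Of the 122 elements 25 could be tested and 5 passed an adjusted threshold of 0.05 (20%), beside 18.8% of the regions tested over the genome. The share called less often in KO was 16.1% over the genome and the share called more often 2.73%, while 0 of the 25 were called more often. The median difference between KO and WT was -50 percentage points over the 25 and -30 over all regions tested. At an unadjusted p under 0.05 there were 16 of 25, beside 50.8% over the genome. In bulk chromatin, a peak lost because fewer cells are open there and one lost because each cell is less open cannot be told apart.

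The calls depend on the libraries that enter. Without WT replicate 1, WT replicate 2 or KO line 2, 0 of the member elements passed. Over the genome 0 of 16413, 0 of 17057 and 0 of 12182 testable regions did. Without KO line 1, 6 of 20 passed, beside 3279 of 13261 testable regions. Each of these fits had 243 arrangements in place of 7776. Without only the D5 libraries of KO line 1 there were 3, the 2 elements of Tead4 and that of Wwtr1, beside 2257 of 19646 testable regions. When a peak had to cover at least 50% of an element, 0 passed, beside 0 of 18975 testable regions. With the replicate number as a block, 10 of 13 testable elements passed, beside 5482 of 8234 testable regions. For genotype this block sets each KO line beside the WT library that shares its number. The same KO lines recur in every stratum either way, which the p-values do not take into account.

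Of the kinases, Lats1 had an element in its body that all 6 WT libraries of D0 and D1 called and no KO library did. It lies at chr10:7695427-7695556, and its fold enrichment stood at percentiles 21.2 and 49.5 of the lists at D0, and at D1 46.5 and 37.3 in CTL and 59.4 and 56.4 in MR. No D5 library of either genotype called it. A percentile of this kind places a peak within its own list, and lists of different length were not compared by it. The adjusted p was 0.0493 by the exact permutation test, and 451 regions of the genome had the same calls. At the start of Lats1 (chr10:7680891-7681954, within 1 kb of an end of Pcmt1), the element was called in 10 WT and 6 KO libraries and its calls could not reach a p of 0.05. Lats2 had no element past the threshold. Its start element (chr14:57745435-57746531) was called in 7 WT and 4 KO libraries, and an element in its body, chr14:57706889-57707557, in 2 WT and 4 KO libraries, adjusted p 0.80 by the exact permutation test.

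Of the coactivators, Wwtr1 had an element in its body that all 10 WT libraries called. At chr3:57535836-57536396 the percentiles within the WT lists were 6.87 and 26.3 at D0. At D1 they were 81.8 and 81.7 in CTL and 79.9 and 56.1 in MR, and at D5 93.7 and 81.6 in CTL and 95.9 and 97.5 in MR. In KO it was called only in line 1 at D1, at the 58.5 percentile in CTL and 34.3 in MR. The adjusted p was 0.0352 by the exact permutation test, and 115 regions had the same calls. The element at the start of Wwtr1 (chr3:57575362-57576822), which holds the sequence shown above, was called in all 10 WT and in 8 KO libraries.

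At Yap1 the genotypes differed in opposite directions in the 2 media of D1, with no test for the difference. Its start element chr9:8004620-8004931, over the sequence shown above, was called in both KO lines at D1 in CTL (percentiles 47.8 and 20.1) and in neither WT library there. In MR at D1 both WT libraries called it (23.1 and 24.9) and neither KO line did. KO line 1 also called it at D0 (46.1). List length differed too: at D1 the WT lists held 60173 and 45545 peaks in CTL and 69881 and 57676 in MR. The KO lists held 61045 and 46664 in CTL and 48460 and 35201 in MR. Over all conditions this start element was called in 2 WT and 3 KO libraries, and the adjusted p was 1 by the exact permutation test.

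Tead4 had 2 elements past the threshold for genotype. Each differed by -80 percentage points between KO and WT, as did the Wwtr1 body element chr3:57535836-57536396. The element at chr6:128259277-128259673, in the gene body 32134 bp from the nearer gene end, was called in all 8 WT libraries of D1 and D5, in no D0 library and in no KO library. Its percentiles within the WT lists at D1 were 81.7 and 73.4 in CTL and 54.6 and 43.2 in MR, and at D5 65.3 and 81.4 in CTL and 93.7 and 94.0 in MR. It stood above the median of 7 of the 8 lists, D1 MR replicate 2 being the other. The adjusted p for genotype was 0.0352 by the exact permutation test, and 145 regions of the genome (0.143%) had the same calls. The gene end of Myog, the gene of the myogenic factor myogenin, was called in the same 8 libraries and no others.

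The other Tead4 element past the threshold lies at chr6:128296033-128296830, 3983 bp from the upper end of the span. It was called in 9 WT libraries, all but D1 CTL replicate 2, and in KO line 1 at D0. Its percentiles in WT were 47.8 and 50.7 at D0, 11.9, 11.1 and 1.47 in the 3 D1 libraries that called it, and 20.1 to 34.3 in the 4 of D5, against 26.8 in KO line 1 at D0. The adjusted p was 0.0352 by the exact permutation test. A further element, chr6:128236610-128236942, singled out here after its values were seen, was called in the 8 WT libraries of D1 and D5 and in line 1 at D1. Its percentiles were 77.9 to 96.8 in WT and 36.4 and 11.4 in KO line 1, and its adjusted p was 0.0507.

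**Figure D4:**
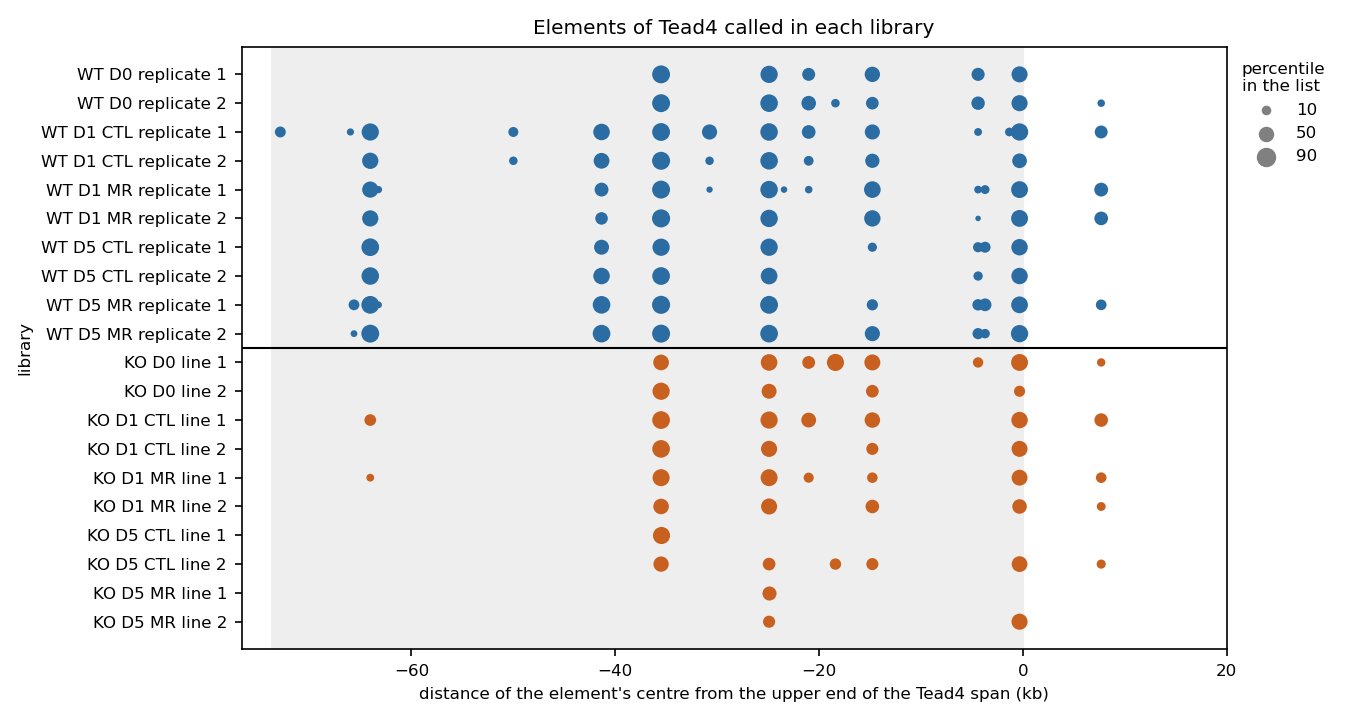
The horizontal axis gives the distance in kb of each Tead4 element's centre from the upper end of the gene's span, which is shaded, and each row is 1 library, WT above the line and KO below it. A point is a call and its area grows with the percentile of fold enrichment within the list. Elements at -64.0 and -41.3 kb appear in the 8 WT libraries of D1 and D5, and the element at -41.3 kb in no KO library.

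Of the other Tead genes, Tead1 had 1 element past the threshold, in the gene body at chr7:112885598-112885860. All 10 WT libraries called it, at percentiles from 19.4 to 96.5, and KO called it at D1 only, in line 1 in CTL and MR (46.9 and 43.2) and in line 2 in CTL (7.60). The adjusted p was 0.0412 by the exact permutation test. The start element of Tead2 (chr7:45216156-45216231) was called in 5 WT libraries, namely both of D0, both CTL and 1 MR library of D1, and in no KO library, adjusted p 0.0666 by the exact permutation test. That of Tead3 (chr17:28350054-28351023, within 1 kb of an end of Tulp1) was called in 9 WT and 3 KO libraries, adjusted p 0.0507.

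Among the cofactors no element passed. The start element of Vgll2 (chr10:52022430-52022758) was called in 7 WT and 2 KO libraries, adjusted p 0.0820 by the exact permutation test. Vgll2's flanking element chr10:52036790-52037003 was called in 8 WT and 3 KO libraries, adjusted p 0.0666, and the Vgll3 body element chr16:65820888-65821098 in 7 and 2, adjusted p 0.0820. The start element of Vgll3 (chr16:65814886-65815837), over the sequence shown above, was called in all 10 WT and in 8 KO libraries, at percentiles between 72.0 and 91.9.

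Pairs of groups were also set side by side, counting elements that one group called in each of its libraries and the other in none. With 2 libraries on each side an exact test cannot go below a two-sided p of 0.333, and these counts carry none. At D0, KO lacked 8 of 76 elements called in either group (10.5%, all regions 5.36%) and gained 0 (all regions 2.51%). At D1 in CTL it lacked 11 of 99 (11.1%, all regions 6.45%), of which Tead4 and Tead1 had 3 each, Vgll2 2, and Tead2, Tead3 and Lats1 1 each. It gained 3 there (3.03%, all regions 5.41%), in Tead1, Yap1 and Lats2. At D1 in MR it lacked 14 of 99 (14.1%, all regions 17.7%) and gained 0 (all regions 1.61%). The Lats1 body element at chr10:7695427-7695556 was lacking in KO in all 3 of these pairs.

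The second comparison follows the elements from D0 to D1 in control medium. In WT, 11 of 83 elements called in either group were called in both D1 libraries and neither at D0 (13.3%, all regions 7.44%) and 0 the other way round (all regions 2.63%). Of the 11, Tead4 had 4, Tead1 3, Vgll2 2, and Tead3 and Wwtr1 1 each, and Yap1, Lats1, Lats2, Tead2 and Vgll3 had none. In KO, 2 of 85 were gained (2.35%, all regions 1.91%) and 0 lost (all regions 0.353%). These were the Tead1 body element chr7:112885598-112885860 and the Vgll2 flank element chr10:52036790-52037003, both of which WT called already at D0. List length did not move in 1 direction between these days. The list of WT replicate 1 grew from 43058 to 60173 peaks, while that of WT replicate 2 shrank from 49281 to 45545. Likewise the list of KO line 2 grew from 30629 to 46664, while that of KO line 1 shrank from 63530 to 61045. With the 20000 strongest peaks of each list the gain in WT was 3 elements, and the share over all regions was not computed for that setting. Leaving out a replicate or line leaves 1 library against 1, a looser rule whose counts cannot be set beside these.

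Of the 4 elements gained by Tead4 in WT, 2 are those centred -64.0 and -41.3 kb from its upper end, and they were called again at D5. The other 2, chr6:128250775-128250861 (percentiles 24.4 and 15.4 at D1 in CTL) and chr6:128270009-128270142, were not called in any D5 library. The same holds for the Tead1 body element chr7:112833291-112833379 and the Tead3 body element chr17:28337580-28337774 (percentiles 4.72 and 3.78). These 2 and the first of the Tead4 pair were called in both WT libraries of D1 in CTL and nowhere else, as were 534 regions of the genome. Vgll2 gained chr10:52029132-52029601, just past its far end (46.6 and 14.1), and chr10:52039494-52039598 in its flank (65.2 and 63.6), and WT replicate 1 called both again at D1 in MR.

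The third comparison sets D5 against D1 within genotype and medium. Elements of Wwtr1, Vgll2, Tead1 and Tead2 were called in fewer D5 than D1 libraries. Of 20 testable elements 11 passed the adjusted threshold (55%), beside 66.2% of the regions tested over the genome, by the exact permutation test with 1296 arrangements. None was called more often at D5, beside 0.00619% over the genome. Wwtr1 had 6 of the 11, Tead1 and Vgll2 2 each and Tead2 1, and the adjusted p lay between 0.0379 and 0.0420. The median difference was -62.5 percentage points over the 20 as over all regions tested. At an unadjusted p under 0.05 there were 14 of 20, beside 80.1% over the genome. The D5 lists were shorter: 20847 to 39538 peaks in WT and 644 to 29963 in KO, against 35201 to 69881 at D1.

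This count depends on the setting, for these elements as over the genome. With only the 20000 strongest peaks of each list, 0 of 5 testable elements passed, beside 0 of 5519 testable regions. Without the D5 libraries of KO line 1, 0 of 25 passed and 8 had an unadjusted p under 0.05. Over the genome 0 of 14311 testable regions passed there, with 324 arrangements in place of 1296. Leaving out WT replicate 1 or WT replicate 2 left 0, beside 0 of 4734 and 0 of 5952 testable regions. Leaving out KO line 1 left 6 of 6, beside 3512 of 3898 testable regions. With WT alone, no element could reach a p of 0.05. With the replicate number as a block, 7 of 11 testable elements passed, beside 5943 of 6792 testable regions.

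At Wwtr1 the elements that were called less often at D5 included 1 beside the start element and 1 next to it. The former, chr3:57574889-57575236, was called in 7 of 8 D1 libraries and in no D5 library, and in 1 at D0, with percentiles of 0.486 to 37.6. The latter, chr3:57574169-57574365, was called in all 8 D1 libraries and at D5 in KO line 2 in CTL (23.8). Its D1 percentiles ran from 2.46 to 69.1. The start element itself was called in all 6 D5 libraries of usual length. The 4 other Wwtr1 elements past the threshold lie in the gene body at chr3:57487534-57487643, chr3:57504891-57505051, chr3:57527321-57527474 and chr3:57555782-57555891, and were called in 5 to 7 D1 and 0 to 2 D5 libraries.

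Of the Tead genes, Tead1 had a flanking element at chr7:112917991-112918164 that was called in all 4 D0 and all 8 D1 libraries and at D5 only in WT MR replicate 1. Its D1 percentiles were 39.3 to 94.1 and that of the 1 D5 list was 15.6. The Tead1 body element chr7:112717586-112717931 was called in 7 D1 libraries and no D5 library, at percentiles of 0.514 to 43.1. At Tead2 the flanking element chr7:45198570-45198723, which lies in Kash5, was called in 6 D1 and no D5 libraries. Of the Vgll2 flank, chr10:52018537-52019150 was called in 6 D1 and 0 D5 libraries and chr10:52036790-52037003 in 7 and 2, the 2 being WT in MR.

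Between the WT groups alone, and again with no test, 35 of 81 elements called in either group were lost from D1 to D5 in CTL (43.2%, all regions 32.9%) and 0 gained (all regions 0.409%). Tead1 had 11 of the 35, Wwtr1 7, Vgll2 5, Tead4 and Lats2 3 each, Tead2 and Lats1 2 each, and Tead3 and Vgll3 1 each. In MR 15 of 100 were lost (15%, all regions 21.9%) and 3 gained (3%, all regions 1.69%). The 3 gained were in Tead4 (chr6:128235094-128235265, percentiles 30.0 and 6.63), Lats2 (chr14:57706889-57707557) and the Vgll2 flank (chr10:52048422-52048511).

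Methionine restriction changed no element past the threshold. Only 2 elements, both of Tead1, had calls that could reach a p of 0.05, and 0 passed, as 0 of the 3909 regions tested over the genome did (0%). No member element had an unadjusted p under 0.05, beside 5.88% over the genome, by the exact permutation test with 1296 arrangements. The body element of Tead1 at chr7:112763571-112763875 had the larger difference, 37.5 percentage points more calls in MR than in CTL with an adjusted p of 0.560. It was called in no WT library in CTL and in all 4 in MR. In KO, both lines called it at D1 in CTL, line 1 at D1 in MR and neither at D5.

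Between WT groups, 7 of 104 elements were called in both D1 MR libraries and neither D1 CTL library (6.73%, all regions 10.2%) and 4 the other way round (3.85%, all regions 1.75%). Of the 7, Yap1 had 2, the start element chr9:8004620-8004931 and the body element chr9:8003390-8003576 (percentiles 46.0 and 57.4 in MR). Tead1, Lats1, Lats2, Vgll2 and Vgll3 had 1 each. The 4 lacking in MR were 2 body elements of Tead1 and 1 each of Tead3 and Tead4. At D5 in WT 12 of 57 were gained in MR (21.1%, all regions 27.9%) and 0 lost (all regions 0.494%), with 20847 and 22465 peaks in the CTL lists and 39263 and 39538 in the MR lists. The 12 fell to Tead1 and Lats2 with 3 each, Vgll2 with 2, and Tead4, Wwtr1, Lats1 and Vgll3 with 1 each. In KO at D1, 0 of 81 were gained in MR (all regions 0.369%) and 5 lost (6.17%, all regions 4%), of which Yap1 and Wwtr1 had 2 each and Tead3 1.

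Calls depend on how long a list is, so strength was also compared within a common set, the 11144 regions called in all 18 libraries other than the D5 libraries of KO line 1. Each region was given its percentile of the authors' fold enrichment within that set in each library. The set holds 14 member elements: 5 of Tead1, 2 each of Tead3, Tead4, Wwtr1 and Vgll3, and 1 beside Lats1. None of Tead2, Yap1, Lats2 or Vgll2 is in it. Elements of Tead4, Tead1 and Lats1 ranked lower in KO and that at the start of Wwtr1 ranked higher. By the exact permutation test over 1944 arrangements, adjusted over the 11144, 6 of the 14 passed (42.9%), beside 18.1% of all regions in the set. Higher in KO were 9.24% of all regions and lower 8.87%. At an unadjusted p under 0.05 there were 7 of the 14 (50%), beside 33.7%. The median difference was -6.28 percentile points over the 14 and 0.47 over the set. Of the member elements 0 passed without WT replicate 1, WT replicate 2 or KO line 2, and in each case 0 of the 11144 regions did. Without KO line 1, 5 passed, beside 2875 of the 11144. With the D5 libraries left out of set and test, 0 of 23 passed, beside 0 of 19629 regions. The same KO lines recur across days and media, which the genotype test does not take into account. A block by replicate number sets each line beside the WT library that shares its number and does not change this. With the replicate number as a block, 0 of the 14 and 0 of the 11144 regions passed, with adjusted p of 0.0855 to 0.156 for the 6 by the exact permutation test over 256 arrangements.

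The Tead4 body element chr6:128275574-128276264 had the only ranges of the 6 that did not overlap between genotypes. In WT its percentile ran from 62.4 to 87.7 with a median of 73.1 over 10 libraries. In KO it ran from 13.8 to 52.6 with a median of 37.0 over 8. The share of regions in the common set whose ranges also do not overlap between genotypes was not computed. The KO values at D5, 13.8 and 20.5, both of line 2, were the lowest, and the WT values at D5 were 72.7 to 87.7. The difference was -41.2 percentile points, with an adjusted p of 0.00992 by the exact permutation test, beside a median of 1.69 over the 562 regions of chromosome 6 in the set. Line 1 differed from WT by -22.4 and line 2 by -43.5. Here and in the line values below, line 1 entered at D0 and D1 only and line 2 also at D5. Without the D5 libraries the difference was -20.9, adjusted p 0.0835 by the exact permutation test. That value comes from ranks within the 19629 regions called in all D0 and D1 libraries, not within the 11144. Over all alternatives the adjusted p ran from 0.00834 to 0.180.

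In Tead1, 3 of the 5 elements of the set ranked lower in KO. At chr7:112883782-112884267, in the gene body, WT ran from 66.4 to 90.7 (median 77.0) and KO from 22.2 to 73.7 (median 30.5). The KO libraries were split, with 3 at D1 at 65.2 to 73.7 and the other 5 at 22.2 to 30.7. The difference was -38.3, adjusted p 0.0139 by the exact permutation test, with -32.7 in line 1 and -35.1 in line 2. Without the D5 libraries, in the set of 19629 regions, it was -22.0. This element lies less than 2 kb from the Tead1 element called less often in KO.

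Beside the upper end of Tead1, chr7:112906877-112907278 ranked at 62.2 to 84.0 in the 6 WT libraries of D0 and D1. In the 6 KO libraries of those days it ranked at 4.54 to 55.5, so these ranges do not overlap. How many regions have such ranges was not computed. Without the D5 libraries, in the set of 19629 regions, the difference was -45.1, adjusted p 0.0835 by the exact permutation test. At D5 both genotypes were low, 1.77 to 22.1 in WT and 5.19 and 24.7 in KO. The difference was -29.3 over all days, adjusted p 0.0464, with -56.6 in line 1, which enters at D0 and D1 only, and -24.9 in line 2. Without KO line 1 the adjusted p was 0.0760 by the exact permutation test, and it ran from 0.0309 to 0.314 over all alternatives. At chr7:112760718-112761170 in the gene body the difference was -19.4, adjusted p 0.0199, with WT at 74.4 to 95.4 and KO at 51.7 to 95.9, and it was -9.53 in line 1 and -23.6 in line 2.

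At the start of Wwtr1, chr3:57575362-57576822 ranked higher in KO. WT ran from 20.8 to 55.5 with a median of 43.2, and KO from 35.9 to 97.0 with a median of 55.1, so the ranges overlap. The highest values were those of KO line 2, 73.1 at D0 and, at D5, 79.1 in CTL and 97.0 in MR. The difference was 25.4, adjusted p 0.0228 by the exact permutation test, with 13.7 in line 1 and 27.2 in line 2, beside a median of 2.71 over the chromosome. Within 20 kb of Lats1, chr10:7662898-7663720, which lies in Pcmt1, differed by -13.1, adjusted p 0.0282, with WT at 11.5 to 37.4 and KO at 0.301 to 20.8. With the chromosome's own shift of -4.29 taken off in each library it was -5.72, adjusted p 0.272 (0.0195 to 0.520 over all alternatives), and it was -4.36 in line 1.

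**Figure D5:**
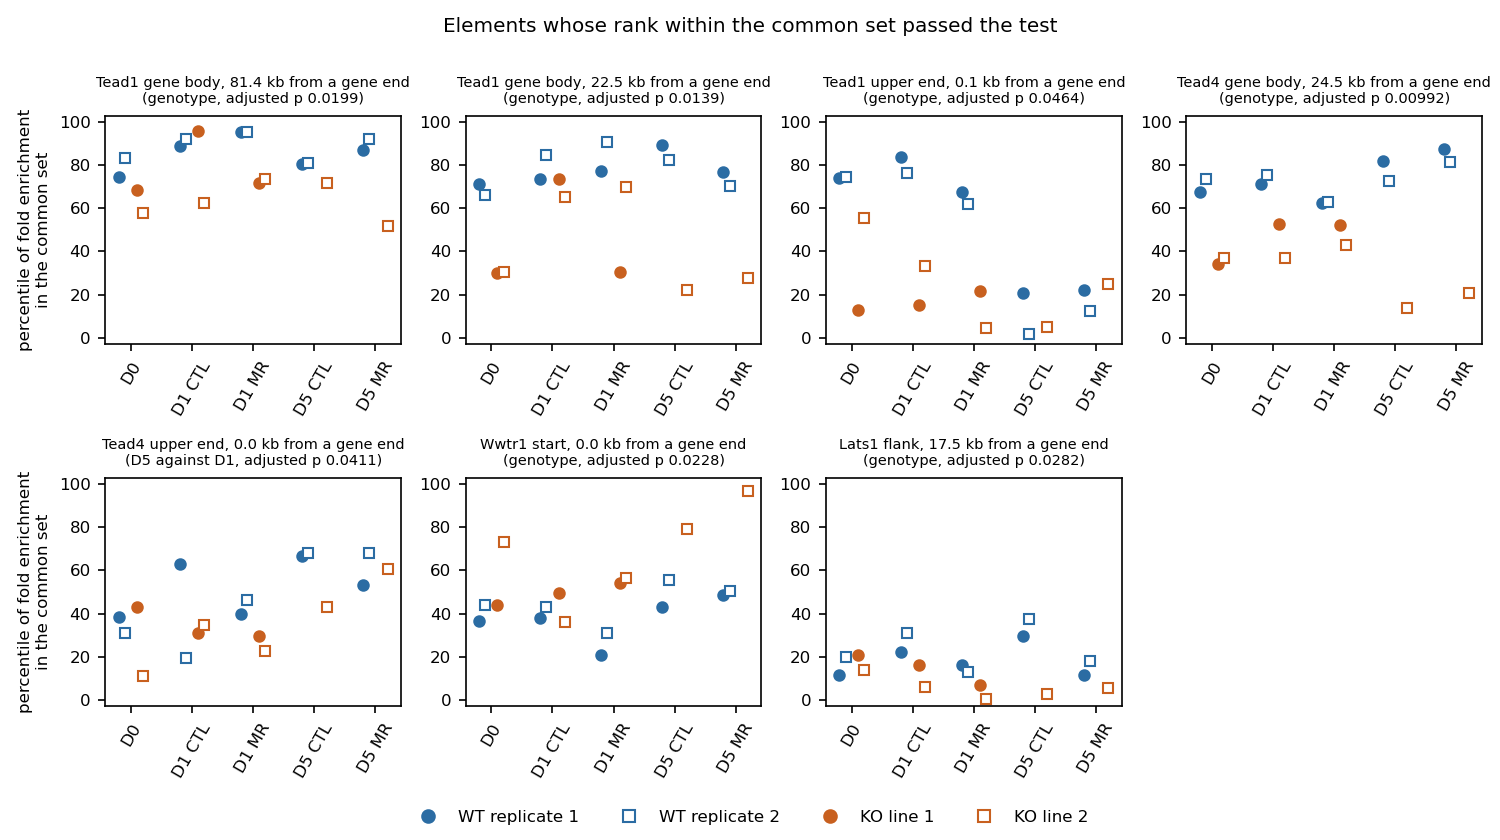
Each panel is 1 of the 7 elements whose rank passed the test, with the percentile of fold enrichment within the 11144 regions of the common set on the vertical axis and day and medium on the horizontal axis. Filled circles are WT replicate 1 or KO line 1 and open squares WT replicate 2 or KO line 2, and the D5 libraries of KO line 1 are left out. In the Tead4 body panel all WT points lie at 62.4 or above and all KO points at 52.6 or below.

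By day, the rank of 1 of the 14 elements passed (7.14%, beside 7.5% of the set, 3.75% in each direction), by the exact permutation test over 324 arrangements. It is the element at the upper end of Tead4, chr6:128300079-128300923, which ranked higher at D5. At D1 it ran from 19.4 to 63.1 with a median of 32.7 over 8 libraries and at D5 from 42.9 to 68.1 with a median of 63.6 over 6. The difference was 22.0, adjusted p 0.0411 by the exact permutation test. It was past the threshold in none of the 4 fits that left out WT replicate 1, WT replicate 2, KO line 1 or KO line 2 (15.3 to 28.7). Nor did it pass with the replicate number as a block (22.2, adjusted p 0.153, and 0.0461 to 0.260 over all alternatives). In each of these fits 0 of the 11144 regions passed, and without KO line 2 the smallest p of any region was 0.0556. The start element of Wwtr1 differed by 27.6 in the same direction, adjusted p 0.0553. In the common set 0 of 14 passed for methionine restriction, as 0% of all regions did. At an unadjusted p under 0.05 there were 3 of the 14 (21.4%, all regions 17.7%), each lower in MR. They were body elements of Wwtr1 (-22.7 percentile points) and Tead1 (-17.2) and the element in Pcmt1 beside Lats1 (-8.97).

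Over the whole pathway, calls within 1 kb of either gene end were compared for the 10 members and for 22 further Hippo pathway genes. Of the members, Tead1, Tead4, Wwtr1 and Vgll3 were called in 18 of 20 libraries, Lats1 in 16, Tead3 in 14, Lats2 in 11, Vgll2 in 9, Yap1 in 6 and Tead2 in 5. Tead2 was called in 5 WT and 0 KO libraries and Vgll2 in 7 and 2, adjusted p 0.0833 and 0.0930 by the exact permutation test. Genotype passed at no gene end of either list, and 1.62% of 1850 testable gene ends over the genome were called less often in KO. Yap1 was the 1 member past the threshold for day, with 5 of 8 D1 libraries, 0 of 8 at D5 and 1 of 4 at D0, adjusted p 0.0436, beside 63.6% of 1788 testable gene ends called less often at D5. It did not pass without WT replicate 1, WT replicate 2 or KO line 1.

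Of the 22 further genes, 16 were called in 18 libraries or more, among them the upstream kinases Stk3 and Stk4, the Lats partners Mob1a and Mob1b, Nf2, and the Yap1 and Tead targets Ccn2 and Ankrd1. Ccn1, a target of the same kind, was called in 16, Sav1 in 17, Ajuba in 16, Amotl1 in 10, Limd1 in 9 and Dlc1 in none. No gene of this list passed or had an unadjusted p under 0.05 for genotype, day or medium, and 2 of the 22 could be tested, for genotype. Over the genome 44.9% of testable gene ends had such a p for genotype and 3.71% for methionine restriction. Markers of differentiated muscle were called in more WT than KO libraries. Myog and Ckm were called in 8 and 5 WT and no KO libraries, Mymx in 10 and 3, Acta1 in 8 and 1, and Mymk in 10 and 4. Myh3 was called in 2 WT and no KO libraries within 1 kb of its ends, but in 9 and 6 within 2 kb. Of these 6, 5 had an unadjusted p under 0.05 for genotype and 0 passed the adjusted threshold. Their part in the differences at the Tead, Wwtr1, Lats1 and Vgll2 elements was not tested.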

How the data were processed

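Per the labels, ATAC-seq libraries were made with a commercial tagmentation kit and sequenced as paired ends, and per the submitters' processing notes the build is GRCm38. The aligner, read filters, read shift and peak caller are not given in the sources used here. The authors deposited 1 broadPeak list per library, called per library, in which each peak carries a fold enrichment (ratio), a −log10 p-value and a −log10 of its q-value. These are the authors' values, and here they only describe, filter or rank the peaks of 1 list. Read depth was not used here, so list length stands beside the results in its place.

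The 787806 peaks were merged into 101352 regions. For an element with several peaks in a library the highest fold was taken. Gene spans came from a RefSeq table of GRCm38.p6. Differences are means over strata of group differences. Calls and ranks were tested by exact two-sided permutation within strata with Benjamini-Hochberg adjustment over all testable regions, tested on simulated data, with Python 3.11.15, NumPy 2.4.6 and pandas 2.3.3. The members, gene lists and tests were chosen with earlier results of these data known. Elements named were those past a threshold, the gene-end element with the most calls, and up to 3 per gene that separate groups, with exceptions stated in place. KO replicate numbers are the lines and pair the KO libraries: deviations of same-numbered libraries correlated at 0.404 to 0.538 over 3 pairs of groups. WT numbers share only a number (-0.0659 to 0.0996 over 10). Alternatives changed the overlap, the peak threshold, the list length, the rank measure and the libraries. One marker gene of the planned lists is not reported here.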

Additional observations from a re-analysis of the deposited data

Results flagged for a closer look

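Of 48 quantities checked, 2 stood out because both WT libraries moved one way under methionine restriction at D1 and both KO lines the other way. Neither difference was tested.

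The number of Yap1 elements called was 1 and 0 in the WT libraries in CTL and 2 and 3 in MR, but 4 and 2 in KO lines 1 and 2 in CTL and 1 and 0 in MR. The change in KO minus that in WT was -4.5 elements. By replicate number and line, list length moved the same ways. The WT lists at D1 held 60173 and 45545 peaks in CTL and 69881 and 57676 in MR. Those of KO lines 1 and 2 held 61045 and 46664 in CTL and 48460 and 35201 in MR. Whether the Yap1 counts follow list length was not tested. The rank of the Wwtr1 start element chr3:57575362-57576822 in the common set was 37.8 and 43.2 in WT in CTL and 20.8 and 31.2 in MR, but 49.8 and 35.9 in KO in CTL and 54.0 and 56.3 in MR. The change in KO minus that in WT was 26.8 percentile points.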

How the results depend on the processing

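For genotype, 5 elements passed on calls. The number was 0 with a peak covering at least 50% of the element, 1 where −log10 q was 5 or more, 1 without the D5 libraries, 3 without the D5 libraries of KO line 1, 0 with p-values adjusted over all regions, and 0 to 6 when 1 replicate or line was left out. The 6 without KO line 1 held 4 of the main 5. With the 20000 strongest peaks 4 passed, 2 of them among the main 5. For D5 against D1, 11 passed. The number was 0 with the 20000 strongest peaks, 0 with WT alone and 0 without the D5 libraries of KO line 1. It was 0 when adjusted over all regions, and 0 to 11 when 1 replicate or line was left out. The 11 that passed without KO line 2 held 7 of the main 11. With 50% cover 14 passed, 7 of them among the main 11. Where −log10 q was 5 or more 10 passed, 2 of them among the main 11. On rank, 6 passed for genotype, with 0 when the D5 libraries were left out and 0 to 5 when 1 replicate or line was. On rank, 1 passed for day, with 2 by −log10 q-value, 2 with the chromosome's shift taken off, and 0 in each of the 4 fits without a replicate or line. Methionine restriction gave 0 under each alternative run. In every setting above where 0 elements passed on calls or rank, 0 regions of the genome passed as well. Gene ends of members gave 1 for day and 0 to 1 when 1 replicate or line was left out.

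With the replicate number as a block, 10 elements passed on calls for genotype, 7 for D5 against D1, and 0 on rank for genotype and for day. For day the block pairs KO lines but joins WT libraries by number only. For genotype it joins KO lines to WT libraries by number only. With the block for the KO lines only, D5 against D1 gave 14. From D0 to D1 in WT, the 11 elements gained were 6 where −log10 q was 5 or more, 3 with the 20000 strongest peaks and 13 to 28 with 1 replicate left out. The 0 lost were 2 with 50% cover, 1 where −log10 q was 5 or more, 2 with the strongest peaks and 0 to 5 with 1 replicate left out. In KO, the 2 gained were 0 under each of these 3 settings and 17 to 20 with 1 line left out, and the 0 lost were 1 to 9. The settings without the D5 libraries of KO line 1, those for D0 to D1 and the libraries left out for gene ends were chosen after seeing the data. The causes were not tested, other than that fewer libraries leave fewer arrangements. No element past a threshold changed direction under the alternatives in which it could be tested, as few as 2 for the Vgll2 element chr10:52036790-52037003 and 4 for 3 elements of Wwtr1. Exact p-values are coarse, KO at D5 rests on 1 library of usual length per medium, and list lengths differ between days and media.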
